A study of Macaca fuscata with 18 samples.

Results

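The genes described here are 36 genes of the interferon response and of MHC class I antigen presentation, measured by RNA sequencing in the neurogenic niche of the macaque forebrain, the subventricular zone beside the anterior lateral ventricle (SVZa). They were taken by symbol from a list, out of 19747 symbols of the count table. The list was chosen with earlier results of these data known. Each was represented by its transcript with the highest mean CPM, the counts of a gene scaled to the size of its library. Of the 36 genes, 25 had 1 transcript in the table and 11 had several. They comprise 2 receptor chains, 4 transcription factors, 3 RNA sensors, 22 antiviral effectors and 5 genes of the MHC class I pathway.

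Interferons are secreted proteins that cells release on sensing viral nucleic acids or damage. They bind receptors that activate kinases of the JAK family and transcription factors of the STAT and IRF families, which switch on a broad set of interferon-stimulated genes. These encode proteins that block viral entry, translation and release, and they also raise MHC class I molecules, which present peptides at the cell surface to cytotoxic T cells. In the brain, microglia, astrocytes and endothelial cells are known to respond to interferons, and neurons and oligodendrocytes carry little MHC class I at rest.

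The study compared 3 ischemic monkeys (MK503, MK507 and MK506) with 3 sham-operated monkeys (MK504, MK501 and MK508). The animals were adult Macaca fuscata of no stated genotype. In the ischemic monkeys the arteries that supply the brain were clipped for 18 min, and the sham animals had the same operation without clipping. All 6 were perfused with saline a week after surgery. From each, 3 neighbouring pieces of tissue were cut along the striatal wall of the right ventricle, and the labels A1, A2 and A3 are read here as those pieces, which gives 18 libraries of bulk tissue with no cell sorting. The reads of Macaca fuscata were aligned to the genome of Macaca mulatta, a related species. The study's tables number the monkeys of both groups, and monkeys of the same number were taken as pairs: MK503 with MK504, MK507 with MK501, and MK506 with MK508.

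Library totals were 18076257 to 74551396 counts, and some libraries stood apart before any comparison was made. The first pair, MK503 and MK504, held 1.73 to 2.17% of its counts in the nuclear RNA MALAT1, against 0.0607 to 0.414% in the other 4 monkeys. In 3 libraries of that pair (A2MK503, A2MK504 and A3MK504), 8.21 to 8.86% of the counts fell on POLE2, a subunit of a DNA polymerase. In the sham library A2MK501 the summed level of 10 choroid plexus markers was 76054 CPM, against 147 to 7475 CPM in the other 17 libraries. FOXJ1, which marks the ciliated ependyma of the ventricle wall, was present in every monkey, at 52.6, 146 and 179.5 CPM in ischemia and 47.6, 134.5 and 153 CPM in sham. The summed level of the 9 ependymal markers differed widely between pieces, from 140.5 to 1965 CPM in ischemia and from 84.0 to 2045 CPM in sham.

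To see whether this gene group differed a week after ischemia, the counts of the 3 pieces of each monkey were summed, and the 6 monkeys were compared in edgeR with the pair as a block. None of the 36 genes passed at a Benjamini-Hochberg adjusted p under 0.05, nor did any of the 17522 genes tested (0%), whose smallest adjusted p was 0.206. At an unadjusted p under 0.05, 2 of the 36 were higher in ischemia (IFIT2 and STAT2), against 8.38% of all genes, and 0 were lower, against 8.04%. In either direction that is 5.56% of the group and 16.4% of all genes. DESeq2 on the same sums called 1087 genes (6.2%) and 0 of the 36. Fits that took the 18 libraries as the units called 892 genes (5.45%) and 0 of the 36 in edgeR, and 1223 genes (7.48%) and 1 of the 36, IFIT2, in limma with a random monkey block. The median log2 difference between ischemia and sham was 0.02 over the 36 genes and -0.02 over all genes. In bulk tissue, fewer cells of a type and less RNA per cell cannot be told apart.

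The precision of this comparison differed between members. Their standard errors on the log2 scale were 0.10 to 0.51, and 31 of the 36 had a 95% interval of the log2 difference that lay within 1 in either direction. The intervals of the other 5 reached -2.10 for OASL, -1.33 for ISG15, -1.08 for IFITM1, 1.08 for IFIT3 and 1.22 for OAS1. The difference had the same sign in all 3 pairs for 15 members, 11 of them higher in ischemia (20.4% of all genes) and 4 lower (22.8% of all genes). The 4 were IFNGR2, ISG15, OASL and IFI35.

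**Figure D1:**
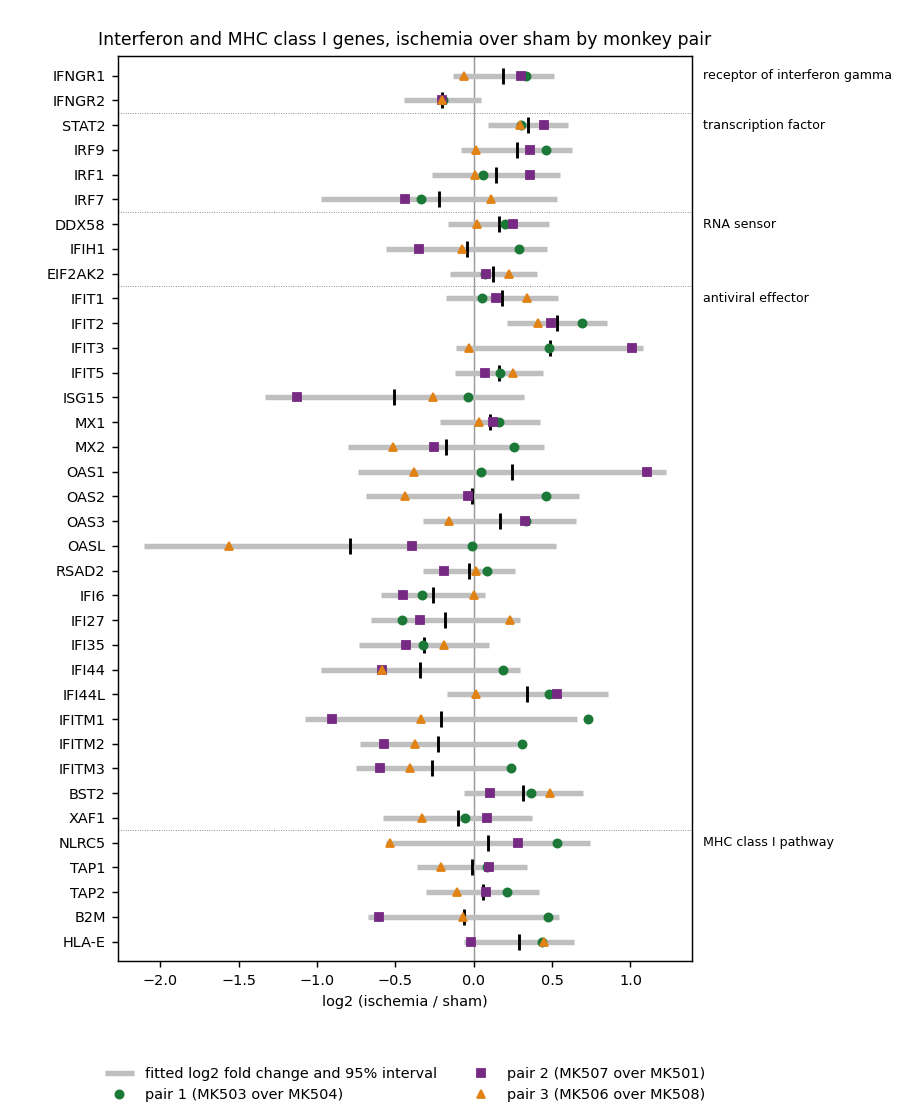
Log2 ratio of ischemia over sham (horizontal axis) for the 36 genes (vertical axis), grouped by role. Black ticks and grey bars give the fitted value and its 95% interval, and coloured symbols the ratio within each monkey pair. IFIT2 and STAT2 are the members whose interval leaves out 0, and 11 members lie right of 0 in all 3 pairs.

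IFIT2 encodes a protein of the IFIT family, which binds viral RNA and restricts its translation. It had 28.7, 18.4 and 21.5 CPM in the ischemic monkeys MK503, MK507 and MK506, against 17.8, 13.01 and 16.1 CPM in the sham monkeys MK504, MK501 and MK508. All 3 ischemic monkeys lay above all 3 sham monkeys, by a margin of less than 1 CPM at the closest point. IFIT2 was the only member whose groups did not overlap, as was so with ischemia higher for 2.44% of all genes and with ischemia lower for 2.76%. The log2 difference was 0.53 (standard error 0.13), with 0.69, 0.50 and 0.41 in the 3 pairs. Its adjusted p was 0.212 by edgeR's quasi-likelihood test with Benjamini-Hochberg adjustment (unadjusted 0.00803). In DESeq2 the adjusted p was 0.0523.

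STAT2, which acts with IRF9 in the factor that carries the type I interferon signal to the nucleus, was at 98.6, 60.1 and 70.0 CPM in MK503, MK507 and MK506 and at 80.1, 44.1 and 57.0 CPM in MK504, MK501 and MK508. The groups overlapped, since the sham monkey of the first pair lay above the ischemic monkeys of the other pairs, but the ischemic monkey was the higher one of each pair. The log2 difference was 0.35 (standard error 0.10), with 0.30, 0.45 and 0.30 in the pairs, and the edgeR adjusted p was 0.238. With condition alone and no pair block, the unadjusted p was 0.356 for STAT2 and 0.122 for IFIT2.

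IRF9, the DNA-binding partner of STAT2, had 15.4, 30.7 and 31.1 CPM in ischemia (MK503, MK507 and MK506), against 11.2, 23.9 and 30.9 CPM in sham (MK504, MK501 and MK508). The ratio lay above 1 in all 3 pairs but was near 1 in the pair of MK506 and MK508, and the log2 difference of 0.27 (standard error 0.14) had an edgeR adjusted p of 0.373. IRF1, a factor induced by interferon gamma, had a log2 difference of 0.14 (standard error 0.16). IRF7, which drives the production of type I interferons, was close to 1 CPM, at 0.622, 1.24 and 1.17 CPM in ischemia and 0.792, 1.68 and 1.09 CPM in sham.

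The receptor of interferon gamma is built of IFNGR1, which binds the ligand, and IFNGR2, which is needed for signaling. IFNGR1 had 61.4, 52.8 and 52.0 CPM in ischemia and 48.7, 43.0 and 54.4 CPM in sham, a log2 difference of 0.19 (standard error 0.12, edgeR adjusted p 0.480). IFNGR2 had 37.6, 58.0 and 45.1 CPM in ischemia and 43.1, 66.7 and 51.9 CPM in sham. IFNGR2 lay lower in the ischemic monkey of every pair by nearly the same ratio, with log2 differences of -0.20, -0.20 and -0.20, but the groups overlapped and the edgeR adjusted p was 0.359.

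Of the RNA sensors, DDX58 encodes RIG-I, IFIH1 encodes MDA5, and EIF2AK2 encodes PKR, a kinase that halts translation on double-stranded RNA. DDX58 had 32.5, 10.5 and 11.4 CPM in ischemia and 28.2, 8.81 and 11.3 CPM in sham. EIF2AK2 had 59.5, 9.29 and 13.5 CPM in ischemia and 56.5, 8.81 and 11.51 CPM in sham. For both, the pairs differed far more than the conditions, and the log2 differences were 0.16 and 0.13 (edgeR adjusted p 0.555 and 0.587). IFIH1 had a log2 difference of -0.05 (standard error 0.20), above 0 in the first pair and below 0 in the others.

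The 22 antiviral effectors were divided, with 9 fitted values above 0 and 13 below, and a median log2 difference of -0.07. IFI6, a membrane protein induced by type I interferon, had 40.7, 93.9 and 97.2 CPM in ischemia and 51.2, 128 and 97.1 CPM in sham (log2 difference -0.26, standard error 0.13, edgeR adjusted p 0.370). IFITM2, one of the membrane proteins that block fusion of viruses with the cell, had 16.2, 61.6 and 56.3 CPM in ischemia and 13.1, 91.9 and 72.97 CPM in sham. The ischemic monkey was above its sham partner in the first pair and below it in the other pairs, and the log2 difference of -0.23 (standard error 0.19) did not pass. IFITM3 followed IFITM2 across the 18 libraries with a correlation of 0.9996, and reads of such close paralogs may be shared between their rows. The same limit holds for the IFIT, OAS, MX and HLA families.

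Among the other effectors, the largest fitted values above 0 after IFIT2 were those of IFIT3 (0.49, standard error 0.23), IFI44L (0.34, standard error 0.20) and BST2 (0.32, standard error 0.15). BST2 encodes tetherin, which holds budding virus at the cell surface, and it had 6.41, 17.1 and 20.4 CPM in ischemia against 4.98, 15.9 and 14.6 CPM in sham, higher in the ischemic monkey of each pair. The lowest fitted values were those of OASL (-0.79, standard error 0.51) and ISG15 (-0.51, standard error 0.32). ISG15, a ubiquitin-like modifier, had 0.892, 1.72 and 1.69 CPM in ischemia and 0.916, 3.79 and 2.03 CPM in sham. Most of its distance between groups lay in the second pair, with a log2 ratio of -1.13 there, against -0.04 in the pair of MK503 and MK504 and -0.26 in that of MK506 and MK508. Without the sham library A2MK501 its log2 difference was -0.20, and with a monkey of the second pair left out it was -0.16 (MK507) or -0.14 (MK501). OASL was the member with the fewest reads, with 119 counts over all 18 libraries.

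In the MHC class I pathway, B2M encodes the light chain that every class I molecule needs. It had 361, 372 and 428 CPM in ischemia and 259.7, 566 and 448 CPM in sham, a mean of 387 ± 35.6 CPM in ischemia and 425 ± 155 CPM in sham (SD, n = 3 each). The sham monkeys held both the lowest and the highest value, and the log2 difference was -0.07 (95% interval -0.68 to 0.54). HLA-E, a non-classical class I molecule that NK cells read through inhibitory receptors, had 52.7, 80.7 and 91.0 CPM in ischemia and 38.9, 81.7 and 66.7 CPM in sham (log2 difference 0.29, standard error 0.14, edgeR adjusted p 0.356). TAP1 and TAP2, which carry peptides into the endoplasmic reticulum, had log2 differences of -0.01 and 0.06. NLRC5, a transactivator of the class I genes, had 0.09. None of the 5 genes had the same sign in all 3 pairs.

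Levels of these genes were also compared between the first pair and the other 4 monkeys. The level of both monkeys of the first pair lay above that of the other 4 monkeys for 11 of the 36 genes (34% of all genes) and below it for 15 (36.4% of all genes), shares near those of all genes. EIF2AK2 was the most separated on the high side, with a log2 ratio of the first pair over the other 4 monkeys of 2.43, followed by XAF1, which encodes an inhibitor of the anti-apoptotic protein XIAP, at 1.64 and DDX58 at 1.53. RSAD2, which encodes viperin, had 43.5 CPM in MK503 and 41.1 CPM in MK504, against 18.9 to 23.5 CPM in the other monkeys. IFITM2 was the most separated on the low side, at -2.27, followed by IFITM3 at -2.22, IFI27 at -1.91 and IFITM1 at -1.86. Interferon-stimulated genes lay at both ends in this pair of animals. The first pair is also the one with the high MALAT1 share and the POLE2 reads, and the part of either in these levels was not tested.

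**Figure D2:**
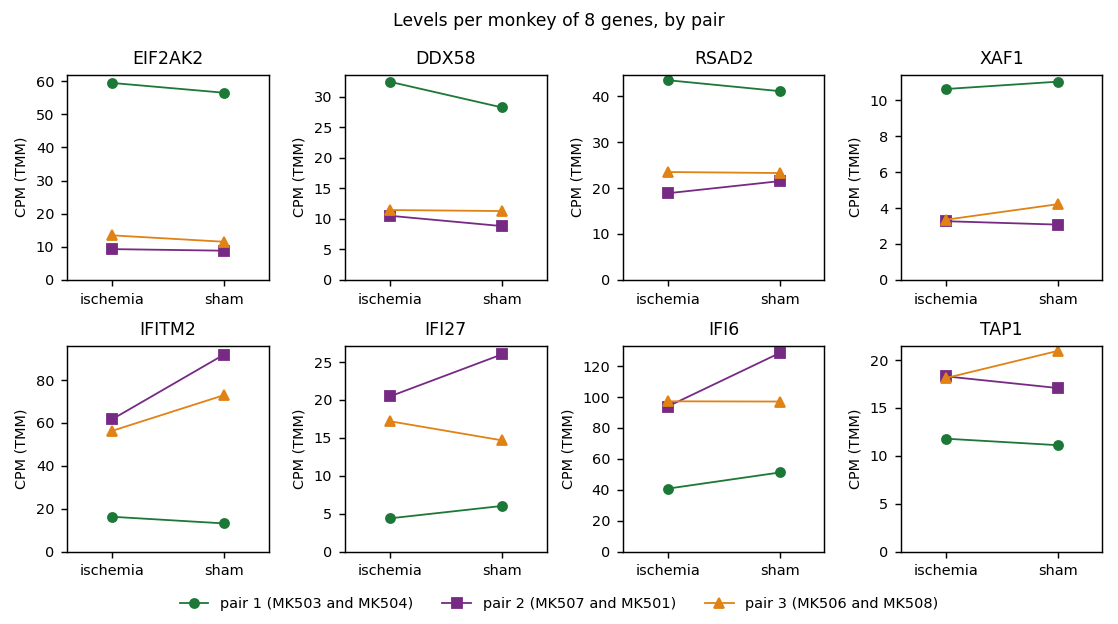
CPM of 8 genes (vertical axis) in the ischemic and the sham monkey of each pair (horizontal axis), with a line for each pair. EIF2AK2, DDX58, RSAD2 and XAF1 lie higher in both monkeys of the first pair, and IFITM2, IFI27, IFI6 and TAP1 lie lower there.

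A single sham library stood high for many of these genes. A2MK501 was the highest of the 18 libraries for 14 of the 36 genes (38.9%), as it was for 18.1% of all genes. The ischemia libraries A1MK503 and A1MK506 were the highest for 10 and 4 members, as they were for 14.4% and 5.66% of all genes. IFITM2 had 209.8 CPM in A2MK501, against 44.0 and 46.6 CPM in the other pieces of the same monkey. The sham libraries without A2MK501 still ran from 7.54 to 92.5 CPM for this gene. B2M had 1120 CPM in A2MK501, against 368 and 332 CPM in the other pieces of that monkey, and ISG15 had 8.21 CPM, against 1.64 and 2.43 CPM. The same library had choroid plexus markers far above all others and a summed level of 15 endothelial markers of 593 CPM, against 239.7 to 324 CPM in the ischemia libraries and 244 to 352 CPM in the other sham libraries. Microglial markers summed to 621 CPM in it, within the range of the other libraries. The part of choroid plexus or vessel tissue in the levels of these genes was not tested.

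Without A2MK501, 4 members were higher in ischemia at an unadjusted p under 0.05 (9.55% of all genes), namely IFIT2, STAT2, BST2 and HLA-E, and none passed after adjustment (0% of all genes, edgeR). BST2 then had a log2 difference of 0.52 (adjusted p 0.174) and HLA-E one of 0.37 (adjusted p 0.175) in edgeR. The fitted values of 8 members changed sign from below 0 to above 0, among them B2M, at 0.16, and IFITM2, at 0.11. IFIT2 stayed at 0.52 and STAT2 at 0.33. This comparison was added after the data were seen.

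**Figure D3:**
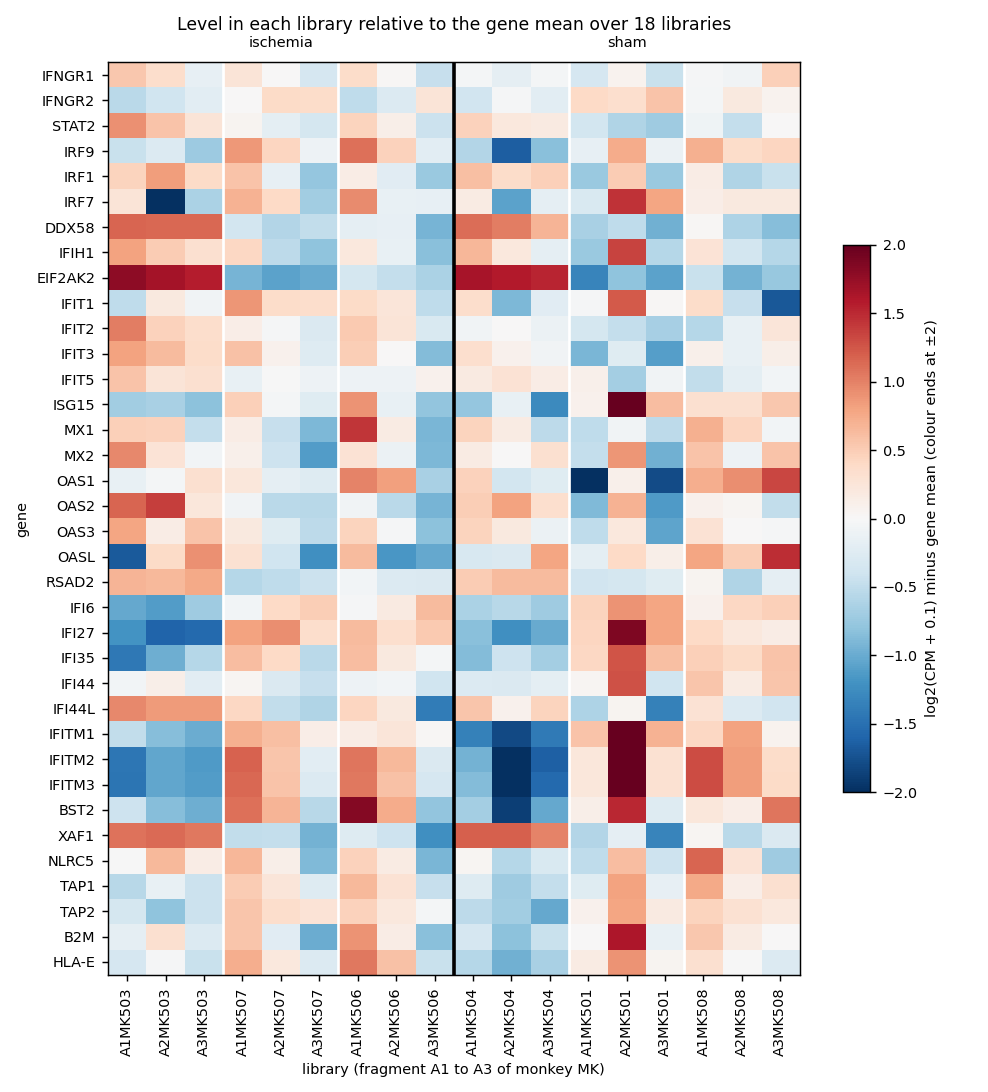
Level of each of the 36 genes (vertical axis) in each library (horizontal axis), as log2(CPM + 0.1) minus the mean of the gene over the 18 libraries, with ischemia libraries left of the black line and sham libraries right of it. The first pair (MK503 and MK504) stands out in EIF2AK2, DDX58, XAF1 and the IFITM genes, and A2MK501 is the darkest red column for the IFITM genes, ISG15 and B2M.

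The 3 pieces of each monkey were then compared within monkeys, in an edgeR fit that blocked on the animal. None of the 35 members that passed the filter on low counts (OASL did not) had an adjusted p under 0.05, nor did any of the 16814 genes tested (0%, smallest adjusted p 0.417). At an unadjusted p under 0.05, 10 of the 35 members differed between pieces (28.6%), against 11.4% of all genes, and 15 members did so without A2MK501, against 15.9%. The 10 were IFNGR2, STAT2, DDX58, IFIT3, MX1, OAS2, OAS3, IFI6, NLRC5 and HLA-E. In 8 of them the fitted value of A3 lay below that of A1, and in IFNGR2 and IFI6 it lay above, by 0.32 and 0.37 on the log2 scale.

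MX1, a dynamin-like protein that traps viral nucleocapsids, had the smallest p of the members in this test. In A1, A2 and A3 it had 19.7, 19.6 and 10.1 CPM in MK503, 15.7, 10.3 and 7.53 CPM in MK507 and 37.97, 15.9 and 7.40 CPM in MK506. In the sham monkeys it had 19.2, 15.8 and 9.76 CPM in MK504, 9.89, 13.5 and 9.80 CPM in MK501 and 23.1, 18.97 and 13.5 CPM in MK508. A3 was the lowest piece in all 6 monkeys, though in MK501 it was nearly level with A1. The log2 difference of A3 over A1 was -1.05, with an edgeR adjusted p of 0.417.

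The order of the pieces differed between animals. Levels stood in the order A1 above A2 above A3 for 28 of the 36 genes in the ischemic monkey MK506 (31.2% of all genes) and for 28 in the ischemic monkey MK507 (24.8% of all genes), with 25 members doing so in both (17.5% of all genes). The remaining ischemic monkey, MK503, had 11 such members (23.7% of all genes). In the sham monkeys it was 9 members in MK504 (14.8% of all genes), 2 in MK501 (6.06% of all genes) and 14 in MK508 (23.1% of all genes). The median log2 ratio of A3 over A1 over the members was -1.01 in MK506, -0.73 in MK507 and -0.12 in MK503, against -0.19 in MK504, 0.05 in MK501 and -0.26 in MK508. Over all genes it stayed between -0.04 and 0.03 in each animal. Levels in A3 lay below those in A1 in all 3 ischemic monkeys for 24 members (26% of all genes), in all 3 sham monkeys for 8 (14.9% of all genes) and in all 6 for 8 (4.43% of all genes).

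B2M showed the slope of those monkeys. It had 537, 313 and 183 CPM in A1, A2 and A3 of MK507 and 680.5, 407 and 205 CPM in MK506, and MK503 had 324, 458 and 303 CPM. In the sham monkeys B2M had 291, 207 and 269.9 CPM in MK504, 368, 1120 and 332 CPM in MK501 and 529.8, 411 and 367 CPM in MK508. HLA-E had 104, 73.01 and 52.3 CPM in MK507 and 131, 94.4 and 46.2 CPM in MK506. BST2 spanned a wider range, with 23.1, 17.2 and 7.24 CPM in MK507 and 38.3, 18.0 and 6.16 CPM in MK506. In MK503, by contrast, HLA-E was highest in A2, at 62.5 CPM, and lowest in A3, at 46.1 CPM.

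**Figure D4:**
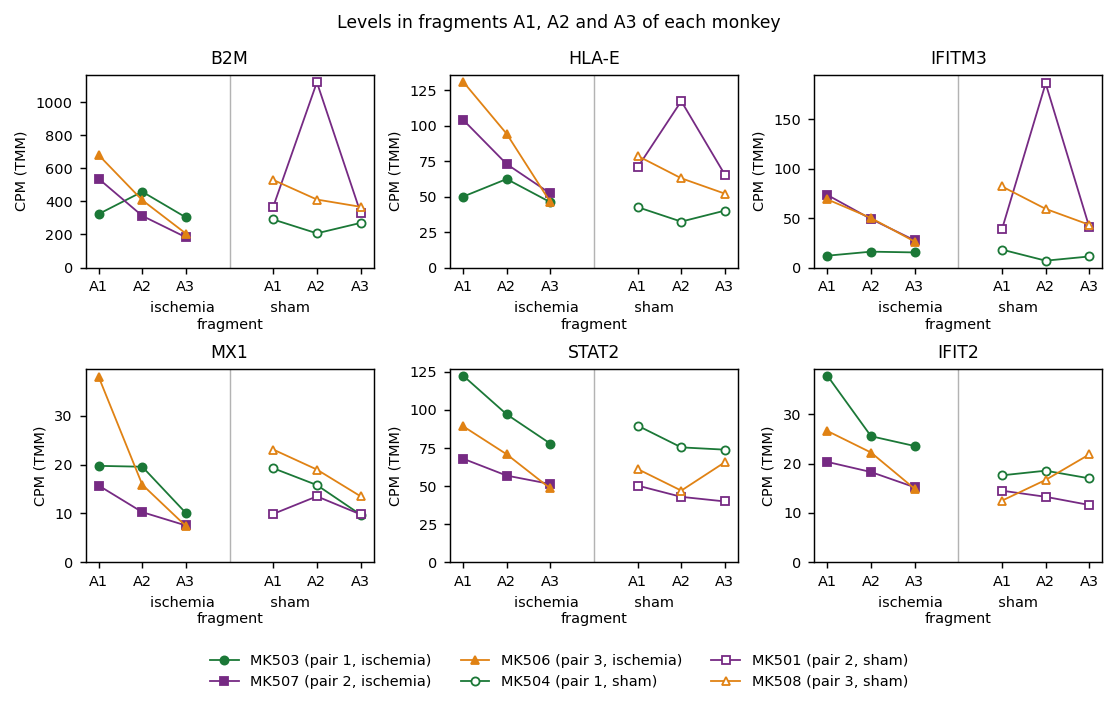
CPM (vertical axis) of B2M, HLA-E, IFITM3, MX1, STAT2 and IFIT2 in pieces A1, A2 and A3 (horizontal axis), ischemic monkeys left and sham monkeys right of the grey line, with a line for each monkey. In MK507 and MK506 A1 lies above A2 and A2 above A3 in every panel, and MK501 has a peak in A2 for B2M, HLA-E and IFITM3.

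Markers of several cell types also differed between the pieces. The summed level of 10 oligodendrocyte markers in A1, A2 and A3 was 31728, 12285 and 1654 CPM in MK503, 17015, 16492 and 4036 CPM in MK507, and 46539, 20706 and 4669 CPM in MK506. In sham it was 3909, 1952 and 2608 CPM in MK504, 4979, 3612 and 2794 CPM in MK501, and 6511, 14856 and 47893 CPM in MK508, the reverse order in that animal. The summed level of 12 neuron markers went the other way in the ischemic monkeys, with 2449, 2838 and 4422 CPM in MK503, 4687, 7728 and 8459 CPM in MK507 and 1331, 4058 and 9497 CPM in MK506. In sham the neuron sums were 4222, 7081 and 6266 CPM in MK504 and 9684, 4743 and 11272 CPM in MK501. In MK508 they were 5332, 8422 and 6365 CPM. Astrocyte markers summed to 14301, 9958 and 7261 CPM in MK507 and 22324, 12815 and 7626 CPM in MK506, the animals in which the members sloped, and to 14866, 17108 and 15956 CPM in MK503. Most of the fall was GFAP, at 6733, 4198 and 1382 CPM in MK507 and 14725, 5904 and 1491 CPM in MK506. S100B, AQP4, GJA1, SOX9, AGT and ALDH1L1 fell in both animals too. SLC1A2 rose, at 1406, 1553 and 1925 CPM in MK507 and 713.6, 1674 and 2560 CPM in MK506, and the remaining markers had other orders. In sham the astrocyte sums were 11121, 13036 and 12767 CPM in MK504, 8405, 9497 and 6297 CPM in MK501 and 11096, 9856 and 10183 CPM in MK508, with no common order. Microglia markers stood in the order A1 above A2 above A3 in all 3 ischemic monkeys, with 581, 523 and 472 CPM in MK503, 555.5, 492 and 354 CPM in MK507 and 669.6, 473 and 415 CPM in MK506. In sham they had 432, 453 and 505 CPM in MK504, 494, 621 and 427 CPM in MK501 and 612, 605 and 755 CPM in MK508, so that no sham monkey had that order. The summed choroid plexus markers had it in the ischemic monkeys as well, with 918, 588 and 280.0 CPM in MK503, 806, 358 and 169 CPM in MK507 and 982.5, 575.5 and 173 CPM in MK506. Most of each of these sums was ENPP2 and AQP1, at 756 and 96.3 CPM in A1 of MK503. TTR, another of these markers, had that order in MK506 alone, at 17.6, 12.3 and 0.904 CPM. It had 0.995, 8.91 and 2.41 CPM in MK503 and 148, 10.4 and 13.5 CPM in MK507. In sham the choroid plexus sums were 7475, 147 and 213.9 CPM in MK504 and 436.7, 76054 and 2816 CPM in MK501. In MK508 they were 1467, 249 and 533.9 CPM. The summed markers of blood cells stood in the order A1 above A2 above A3 in MK507, at 383, 285 and 129 CPM, and in MK506, at 521, 148 and 143 CPM, but not in MK503, at 46.5, 86.2 and 83.7 CPM. The sham monkey MK504 had this order too, at 179.9, 102.6 and 90.1 CPM. MK501 had 108, 575.5 and 97.0 CPM, and MK508 had 357.7, 212.1 and 230.3 CPM. Most of these sums was the hemoglobin genes HBB, HBA1 and HBA2, at 270, 185 and 48.2 CPM in A1 of MK506. The white cell markers LYZ and CSF3R had 12.5 and 1.58 CPM there. The part of the tissue make-up of the pieces in the levels of the members was not tested.

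Whether the difference between ischemia and sham was the same in the 3 pieces was tested as an interaction in edgeR. None of the members passed after adjustment (0% of 17323 genes, smallest adjusted p 0.348 for the members and 0.305 over all genes). At an unadjusted p under 0.05, 3 members did (8.33%), IFNGR1, STAT2 and IFIT2, against 9.82% of all genes. In A1, 15 members were higher in the ischemic monkey of all 3 pairs (22.5% of all genes) and 2 lower (22.3% of all genes). In A2, 3 were higher (13% of all genes) and 6 lower (14.4% of all genes), and in A3, 2 were higher (12.9% of all genes) and 4 lower (14.6% of all genes). The median log2 ratio of the members in A1 was 0.13, 0.58 and 0.07 in the 3 pairs, in A2 0.38, -0.56 and 0.04, and in A3 0.13, -0.12 and -0.59.

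IFIT2 had 37.8, 20.3 and 26.6 CPM in A1 of MK503, MK507 and MK506, against 17.6, 14.51 and 12.5 CPM in A1 of MK504, MK501 and MK508, with all ischemic values above all sham values. In A3 it had 23.6, 15.2 and 14.9 CPM in ischemia and 17.0, 11.6 and 21.9 CPM in sham, and the groups overlapped. Its log2 ratios in A3 were 0.47, 0.39 and -0.55 in the pairs, below 0 only in that of MK506 and MK508. IFNGR1 had 74.1, 61.5 and 66.2 CPM in A1 in ischemia and 49.6, 40.7 and 50.4 CPM in sham. In A3 IFNGR1 had 45.7, 40.5 and 37.2 CPM in ischemia and 49.9, 37.4 and 71.0 CPM in sham. Its log2 ratios in A3 were -0.13, 0.12 and -0.93 in the pairs. For both genes A3MK508 was the highest of the sham libraries. Their interaction had an edgeR adjusted p of 0.504 for IFIT2 and 0.348 for IFNGR1. When the A3 pieces were left out of the sums, 5 members were higher in ischemia at an unadjusted p under 0.05 (12.1% of all genes), and when the A1 pieces were left out none was.

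Genes of the same pathways outside the 36 were read in the same way. The interferon ligands summed to 2.95 to 12.2 CPM in the ischemia libraries and 2.66 to 11.4 CPM in the sham libraries. IFNG, the gene of interferon gamma, had 2 counts over all 18 libraries. Of 21 interferon genes in the table, 9 passed the filter on low counts, and none of these 9 had an unadjusted p under 0.05. IFNK, an interferon of the skin in humans, had 5.002, 1.404 and 1.58 CPM in ischemia and 5.45, 0.243 and 0.768 CPM in sham. IFNA5 had 1.22, 1.38 and 1.59 CPM in ischemia and 1.09, 2.34 and 2.04 CPM in sham. In both, the groups overlapped.

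Of 27 receptor and signaling genes, 2 were higher in ischemia at an unadjusted p under 0.05 (8.38% of all genes) and 0 lower. IFNAR1, a chain of the type I interferon receptor, had 156, 71.3 and 78.7 CPM in ischemia and 125, 47.8 and 62.4 CPM in sham, a log2 difference of 0.41 (edgeR adjusted p 0.226) that was above 0 in all 3 pairs. TLR3, an endosomal sensor of double-stranded RNA, had 6.52, 1.35 and 1.32 CPM in ischemia and 4.43, 0.394 and 0.843 CPM in sham (log2 difference 0.95, edgeR adjusted p 0.278). JAK1, a kinase of the receptors of type I interferon and interferon gamma, had a log2 difference of 0.23 and MAVS, the adaptor of RIG-I and MDA5, one of 0.24, neither past the threshold.

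Of 52 other interferon-stimulated genes tested, 3 were higher (8.38% of all genes) and 2 lower (8.04% of all genes) in ischemia at an unadjusted p under 0.05, shares below those of all genes, and their median log2 difference was 0.01. CXCL10, a chemokine that draws T cells, had 1.22, 5.56 and 0.903 CPM in ischemia and 0.446, 1.17 and 0.757 CPM in sham (log2 difference 1.32, edgeR adjusted p 0.282). Within MK507 it had 12.1 CPM in A1, 1.32 CPM in A2 and 0.441 CPM in A3, and without the library A1MK507, an alternative added after the data were seen, the log2 difference was 0.42 (unadjusted p 0.389, edgeR adjusted p 0.714). TRIM14, an adaptor of antiviral signaling, had 0.56 and TDRD7, a Tudor domain protein of RNA granules, 0.30 as log2 difference. SAMD9 had 0.919, 0.122 and 0.0789 CPM in ischemia and 2.005, 0.197 and 0.299 CPM in sham (log2 difference -1.23, edgeR adjusted p 0.265). The death ligand gene TNFSF10 had a log2 difference of -0.38. ADAR, which edits double-stranded RNA, was at 0.02 and DTX3L, a ubiquitin ligase, at -0.05.

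Of 24 other genes of MHC class I presentation, 1 was higher in ischemia (8.38% of all genes) and 1 lower (8.04% of all genes) at an unadjusted p under 0.05, shares below those of all genes. HFE, a class I-like protein that regulates iron uptake, had 11.8, 5.95 and 7.26 CPM in ischemia and 6.19, 2.34 and 5.27 CPM in sham (log2 difference 0.91, edgeR adjusted p 0.221). PSMB10, a subunit of the immunoproteasome, had 10.7, 49.5 and 32.6 CPM in ischemia and 15.1, 77.5 and 47.6 CPM in sham (log2 difference -0.57, edgeR adjusted p 0.206), lower in the ischemic monkey of each pair. The chaperones CANX and CALR, which assist class I folding, had log2 differences of 0.09 and -0.02.

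Cell type markers were read beside these genes in the same comparison of 6 monkeys, counted at an unadjusted p under 0.05 since no gene passed after adjustment. Each count of this comparison stands against 8.38% of all genes higher and 8.04% lower in ischemia. All 10 oligodendrocyte markers were higher in ischemia (median log2 difference 1.58, each with an unadjusted p under 0.05), and their summed level was 1654 to 46539 CPM (median 16492) in the ischemia libraries and 1952 to 47893 CPM (median 3909) in the sham libraries. Of 20 microglia markers, all present in every monkey, 1 was higher (SALL1, 0.68) and none lower, with a median of -0.03. Their summed level was 354 to 669.6 CPM in ischemia and 427 to 755 CPM in sham. Of 15 endothelial markers 4 were lower (8.04% of all genes), with a median of -0.31, and without the sham library A2MK501, which had the highest sum of these markers, 4 were lower as well (9.89% of all genes), with a median of -0.26. Of 12 neuron markers 4 were lower and none higher, all 12 had fitted values below 0, and the median was -0.52. Of 12 astrocyte markers 3 were higher and none lower, with a median of 0.25. Of 10 choroid plexus markers 6 were lower and 1 higher, with a median of -2.37. Without A2MK501 8 were lower (9.89% of all genes) and 1 higher (9.55% of all genes), with a median of -1.45. None of 9 ependymal markers, with a median of 0.11, and none of the 7 blood cell markers that passed the filter, with a median of -0.17, had an unadjusted p under 0.05. T and NK cell markers summed to 20.4 to 35.1 CPM in ischemia and 26.7 to 35.4 CPM in sham, 1 of 11 tested was lower (GZMB), and GZMA, a cytotoxic granule enzyme, was at 0 in MK503, MK504 and MK508. GZMB had 88 counts over all libraries and 1.44 CPM in A2MK501. Without A2MK501, 0 of 8 T and NK cell markers tested and 7 of 12 neuron markers were lower (9.89% of all genes). In that fit 4 of 12 astrocyte markers were higher (9.55% of all genes), and the median of the blood cell markers was 0.21. The part of these cell types in the levels of the interferon and MHC class I genes was not tested.

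**Figure D5:**
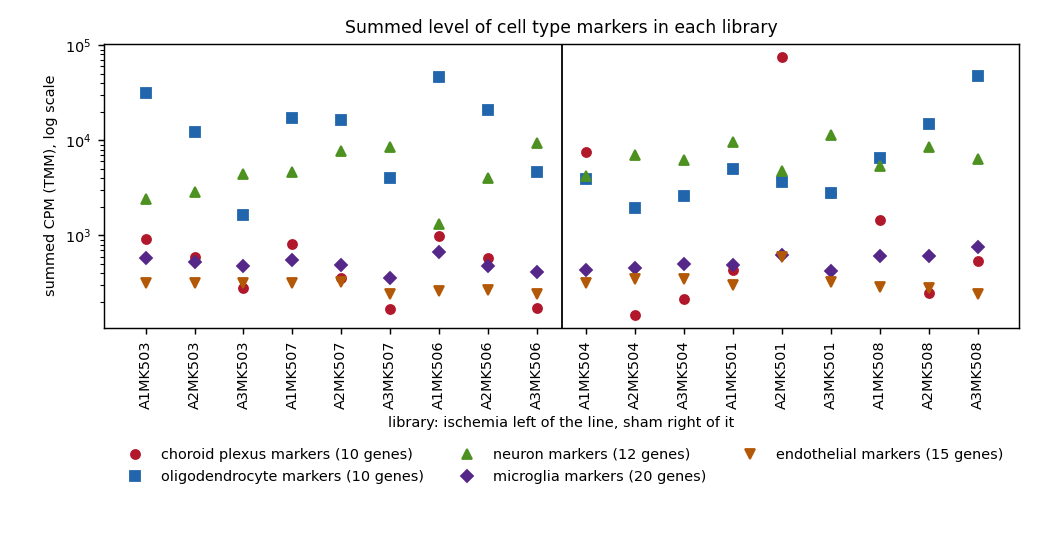
Summed CPM (vertical axis, log scale) of markers of 5 cell types in each library (horizontal axis), ischemia libraries left of the line and sham libraries right of it. Choroid plexus markers reach 76054 CPM in the sham library A2MK501, and oligodendrocyte markers lie highest in A1 and lowest in A3 in each ischemic monkey.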

How the data were processed

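RNA of 18 SVZa libraries, 3 tissue pieces from each of 3 ischemic and 3 sham-operated monkeys, was sequenced as single reads. The authors called bases in CASAVA (1.8.2) and ran FastQC (0.10.0), per the labels. Alignment to the Macaca mulatta genome was by TopHat2 (2.0.8), and bedtools (2.16.2) at default settings, without strand, gave reads per transcript of the RhesusBase annotation. The deposited values are raw counts, not normalized and not pooled, for 29686 human RefSeq transcripts of 19747 symbols. Library totals were 18076257 to 74551396 counts. The lowest count of a member in a monkey was 10 for OASL, 23 for IRF7, 33 for ISG15 and 41 for OAS1, where counting error weighs, and 111 or more for the others.

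The 36 members and all lists were chosen with earlier results of these data known. Members were taken by symbol, with the transcript of the highest mean CPM. The replicate was the monkey. Counts of its 3 libraries were summed, filtered with filterByExpr, normalized by TMM and fitted in edgeR (4.0.16) with pair and condition, with the robust quasi-likelihood test and Benjamini-Hochberg adjustment over 17522 genes at a threshold of 0.05. Printed CPM use TMM library sizes. Pieces and their interaction with condition were tested over 18 libraries with the monkey as a block. Values of each group's pieces share animals, so pieces were never counted as replicates of a condition except in named alternatives. The study uses a paired test without naming the pairs. They were read from the numbered columns of its table of expressed transcripts, each of which matched 1 monkey over 1675 transcripts (median absolute log2 difference 0.00165 to 0.00341, against 0.204 or more for other monkeys of the group). Deviations from the group means correlated at 0.87, 0.77 and 0.65 in the 3 pairs. Correlations of unpaired monkeys are not given and the first pair stands apart, so these values do not show that the pairs are right. The labels do not say whether a pair shares a surgery or sequencing day.

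Under R (4.3.3), alternatives were limma (3.58.1) and DESeq2 (1.42.0), beside other normalizations, filters, transcripts, weights of pieces, leaving out pieces or monkeys, and fits without libraries that stand apart, which were added after the data were seen. The fits were tested on simulated data. Members with unadjusted p under 0.05 and the 2 of each role with the highest mean CPM were named in full. Of the other interferon and MHC class I lists, the genes with unadjusted p under 0.05 and the 2 with the highest mean CPM were named. Cell type markers were counted, and only some of them were named. No genome or transcript length was used, so a difference in CPM between genes is not a difference in transcript number. Mean CPM served to pick genes to name, and the marker sums add CPM without regard to length.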

Additional observations from a re-analysis of the deposited data

Results flagged for a closer look

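Each member was checked for a library far from the other 8 of its group, in 72 groups, and 11 such libraries were found. Chance alone gives about 1 in 20 groups where values are independent and normally distributed. Here 9 libraries come from 3 monkeys and members vary together, so the rate that applies is unknown. The share of all genes with such a library is not given, so the 11 are not read as particular to the members. Of the 11, 8 were the sham library A2MK501, which was the highest of the 18 libraries for 18.1% of all genes. In it IFITM2 had 210 CPM (next sham library 92.5), IFITM3 186 CPM (next 82.1), IFITM1 45.3 CPM (next 13.9) and IFI27 44.6 CPM (next 21.0). B2M had 1120 CPM (next 530), IFIT1 29.3 CPM (next 16.0), IFI44 9.97 CPM (next 6.03) and ISG15 8.21 CPM (next 2.43). The sham library A3MK508 was highest in its group for IFNGR1, at 71 CPM (next 53.6), and for OASL, at 0.789 CPM (next 0.450). In ischemia, MX1 had 38 CPM in A1MK506 (next 19.7). A2MK501 is also the library with 76054 CPM of choroid plexus markers, and the part of that tissue in these values was not tested.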

How the results depend on the processing

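Over 21 alternatives of the comparison of ischemia with sham, IFIT2 kept a fitted log2 difference above 0, from 0.31 without the A1 pieces to 0.69 without the A3 pieces, and STAT2 one of 0.26 to 0.48. Limits include 3 monkeys a group, pairs not named in the labels, the first pair and the library A2MK501, which stand apart, and paralogs that may share reads. Counts of genes with an adjusted p under 0.05, 0 in the report, were 1087 in DESeq2, 892 with 18 libraries as 9 against 9, 1223 in limma with a random monkey block, 1 without the A2 pieces, 282 without the A3 pieces and 0 to 15 with 1 monkey left out, which takes its pair out of the comparison. Of the members, 1 (IFIT2, adjusted p 0.0434) passed in limma. Members higher in ischemia at an unadjusted p under 0.05, 2 in the report, were 0 with no replicate block for the pair, 0 without A1, 1 without A2, 5 without A3 (12.1% of all genes) and 4 without A2MK501 (9.55% of all genes). Members lower, 0 in the report, were 2 with 9 against 9 libraries, 3 in limma, 1 without A3, 2 without the libraries with POLE2 reads and 0 to 3 with 1 monkey left out. The 3 were IFITM1, IFITM2 and IFITM3, without MK503 or MK504. Of all genes, 21.8% without MK503 and 21.7% without MK504 had an unadjusted p under 0.05 in either direction. That share was 25.1% with 9 against 9 libraries and 22.8% without A3, against 16.4% in the report. Members that differed between pieces, 10 in the report, were 4 to 17 with 1 monkey left out, with 4 without MK507 or MK506 and 17 without MK501. Members in the interaction, 3 in the report, were 1 with total counts alone, 6 without A2MK501 (15.8% of all genes) and 0 to 5 with 1 monkey left out, with 0 without MK506, 1 without MK508 and 5 without MK501. Where no share of all genes stands beside a count here, the count is not read as a result about the members. That share also moved between fits, and for the pieces it was 11.4% in the report and 15.9% without A2MK501.

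Fitted log2 differences that changed sign were all of members that did not pass. Without the A1 pieces they were -0.023 for IFNGR1, -0.020 for IRF1, -0.189 for MX1, -0.145 for BST2 and -0.034 for TAP2. Without A2 they were 0.053 for IRF7, 0.247 for IFIH1, 0.254 for OAS2, 0.079 for IFITM1 and 0.072 for B2M. Without A3 they were 0.009 for RSAD2, 0.075 for TAP1 and 0.055 for B2M. With total counts alone they were 0.011 for IFIH1, 0.049 for OAS2, 0.026 for RSAD2 and 0.047 for TAP1. OAS2 was 0.119 with no replicate block for the pair and 0.191 with its transcripts summed. Without the libraries with POLE2 reads they were -0.040 for IFIT1, -0.072 for MX1, 0.003 for RSAD2 and -0.088 for NLRC5. Without A2MK501 they were 0.243 for IFIH1, 0.033 for MX2, 0.224 for OAS2, 0.062 for IFITM1, 0.110 for IFITM2, 0.070 for IFITM3, 0.099 for TAP1 and 0.156 for B2M. These last 2 alternatives were chosen after seeing the data. With 1 monkey left out, the sign changed within ranges of -0.211 to 0.128 for IFIH1, -0.387 to 0.002 for MX2, -0.184 to 0.599 for OAS1, -0.243 to 0.217 for OAS2, -0.087 to 0.070 for RSAD2, -0.623 to 0.187 for IFITM1, -0.192 to 0.017 for XAF1, -0.129 to 0.410 for NLRC5, -0.065 to 0.095 for TAP1, -0.014 to 0.147 for TAP2 and -0.335 to 0.227 for B2M. The cause of these changes was not tested.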
